A study of Austrofundulus limnaeus and Nothobranchius furzeri and Aphyosemion australe with 30 samples.

Results

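Chromatin accessibility was compared between African turquoise killifish embryos in early diapause (Dia 6d) and embryos of the same species in active development (Dev). All 60359 consensus peaks of the species' table were taken, with no selection of peaks, in the 2 Dia 6d and 2 Dev libraries, which are 4 of the 30 samples of a series on killifish with and without diapause. All embryos were wild type and untreated. Dia 6d embryos had spent 6 days in diapause with a slow heartbeat that was still slowing. Dev embryos had a heart rate above 60 beats per minute by their labels (the written staging rule sets a lower limit) and were taken 1 day after the heartbeat began, before the eyes were pigmented. A further 5 libraries of the species served as samples outside this comparison: 3 from embryos after 1 month of diapause (Dia 1m), in which the heart had all but stopped, and 2 from embryos that still carried a Kupffer's vesicle, a transient organ of mid-somitogenesis and were taken before the heartbeat began (Pre-Dia). These Pre-Dia embryos came from first clutches of young parents, whose embryos mostly skip diapause per the study's methods.

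Diapause is a programmed arrest that lets an annual killifish embryo outlast the dry season in mud, with its brain and heart already laid down. Embryos that skip it go straight on with organ growth. ATAC-seq reads which stretches of DNA are open: the Tn5 transposase cuts and tags DNA not wrapped tightly in nucleosomes, so that reads pile up over promoters, enhancers and other elements that bind regulatory proteins. A peak that gains reads is a place where the DNA was more accessible, in more of the cells or in more of the time.

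Each library was made from nuclei of pooled, dissected whole embryos. A more open element per cell and a larger share of the cells that open it therefore cannot be told apart, and neither can diapause and the different age of the embryos. The labels do not say whether the pools came from separate clutches, so that the p-values measure only the spread between these samples. Peaks are named by the numbers and positions of the deposited table (assembly Nfu_20140520), and no gene annotation, marker genes or sequence of that assembly was used here.

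The Dia 6d libraries held 3.93 and 3.22 megareads in peaks and the Dev libraries 6.24 and 5.18 megareads. The median peak held 37 and 29 reads in Dia 6d and 56 and 48 reads in Dev. Both Dev libraries thus held more reads in peaks than both Dia 6d libraries. Such totals mix sequencing depth with the share of reads that fall in peaks. After the authors' scaling by 1 factor per library, the median value was close to equal, at 33.2 and 32.4 normalised reads in Dia 6d and 32.8 and 32.2 in Dev. The other 5 libraries held 2.26 to 3.94 megareads in peaks. The Pearson correlation of log2 values across peaks, which are not independent replicates, was 0.883 between the Dia 6d libraries, 0.908 between the Dev libraries and 0.801 to 0.837 between a Dia 6d and a Dev library. Dia 1m replicate 3 stood apart from the rest, with correlations of 0.632 to 0.805.

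Of the 60359 peaks, 474 (0.785%) differed between Dia 6d and Dev: 305 (0.505%) were higher in Dia 6d and 169 (0.28%) were lower. That excess of higher over lower calls depended on the libraries in the fit, as given below. The median log2 difference, Dia 6d minus Dev, was 1.95 among the higher peaks (smallest 1.33, largest 4.30) and -1.93 among the lower peaks. A log2 difference of at least 2 was reached by 135 of the higher and 71 of the lower peaks. Over all peaks the median was -0.02. The test was limma on log2(value + 1) with 1 fit of the 4 stages in 9 libraries and a Benjamini-Hochberg adjusted p threshold of 0.05, and 7679 peaks (12.7%) had an unadjusted p under 0.05.

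**Figure D1:**
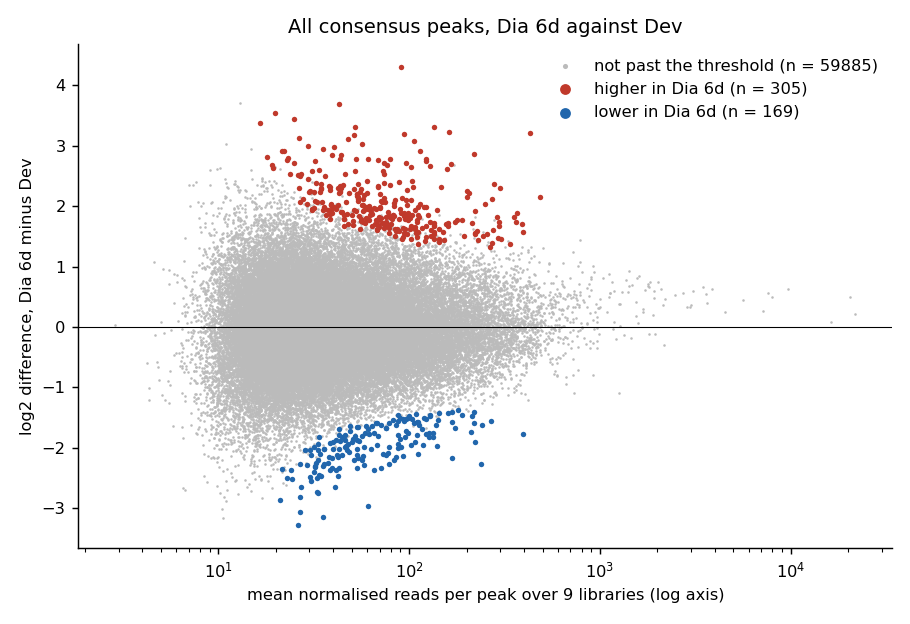
Each point is 1 of the 60359 consensus peaks, placed by its mean normalised reads over the 9 libraries (log axis) and its log2 difference, Dia 6d minus Dev. The 305 red points are higher in Dia 6d (1.33 to 4.30) and the 169 blue points are lower. They lie towards the edges of the cloud, among grey points with differences as large that did not pass the threshold.

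The spread between the replicates was measured in the same units. The absolute log2 difference between the 2 Dia 6d libraries had a median of 0.35 over all peaks, and that between the 2 Dev libraries a median of 0.35, while the absolute difference between the stage means had a median of 0.42. A difference between means of 2 libraries varies less by chance than a difference between single libraries, so these medians are not on the same footing. In the 474 called peaks the same medians were 0.26 between the Dia 6d libraries, 0.35 between the Dev libraries and 1.94 between the stage means. Both Dia 6d libraries lay above both Dev libraries in all 305 higher peaks (25% of all peaks do so), and below both in all 169 lower peaks (27.1% of all peaks). The test picked these peaks by the same Dia 6d and Dev values. Their separation and their medians therefore largely follow from that choice and are no separate evidence of change.

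How many peaks were called depended strongly on which libraries set the spread. With only the 4 Dia 6d and Dev libraries in the limma fit, 6328 peaks (10.5%) passed, 3230 higher (5.35%) and 3098 lower (5.13%), among them all 305 and all 169 peaks of the shared fit. The 3 Dia 1m libraries spread more widely, with a median SD of 0.51 on the log2 scale, than the Dia 6d (0.25), Dev (0.25) and Pre-Dia (0.28) libraries. A median SD runs lower over 2 libraries than over 3, so part of that gap follows from group size. The root mean square SD over peaks, without that bias, was 0.65 in Dia 1m. It was 0.45 in Dia 6d, 0.40 in Dev and 0.50 in Pre-Dia. Without Dia 1m replicate 3 the shared fit called 3356 peaks and without Dia 1m replicate 2 it called 2257, against 193 without Dia 1m replicate 1. The counts were 277 and 290 when replicate 1 or replicate 2 of Pre-Dia was left out. With a single Dia 6d or Dev library left, which is then assumed to vary like the other stages, the counts were 53 without Dia 6d replicate 1, 11 without Dia 6d replicate 2, 42 without Dev replicate 1 and 29 without Dev replicate 2. Since the Dia 6d and Dev libraries do not overlap in any called peak, leaving out a library could not turn a direction round. Higher peaks were 64.3% of the calls in the shared fit and 51.0% in the 4-library fit, so that the excess of higher over lower peaks nearly vanished there. Without Dia 6d replicate 1 the excess was reversed, with more lower than higher calls. With any other library left out, higher calls stayed the more numerous.

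The largest increases were at elements that were almost closed in Dev. At peak_12398 (NC_029652.1, 29608492 to 29609192, 701 bp) the Dia 6d libraries held 155 and 107 normalised reads, against 7.62 and 4.03 in the Dev libraries. Both Dia 6d values were far above both Dev values. The log2 difference was 4.30 ± 0.45 (SE, n = 2 each; limma, Benjamini-Hochberg adjusted p = 5.44e-06), the largest of any peak in the comparison, and the ratio of the stages' reads was 22.5 (95% exact binomial interval 14.2 to 38.0, counting error only). Every SE given here comes from the shared fit. It draws on the spread in all 9 libraries and over other peaks, not only on the 2 and 2 libraries compared. At peak_18857 (NC_029654.1, 23119207 to 23119678, 472 bp) the Dia 6d libraries held 61.0 and 49.2 normalised reads, against 4.10 and 2.68 in Dev (log2 difference 3.69 ± 0.53, limma, Benjamini-Hochberg adjusted p = 0.000665). The groups were again far apart.

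Other strong increases were at peaks with a range of levels in Dev. The most securely measured was peak_56711 (NW_015447614.1, 3666 to 5003, 1338 bp), on an unplaced scaffold, with 577 and 681 normalised reads in Dia 6d, against 62.7 and 70.5 in Dev. The replicates lay close together and the stages far apart. Its log2 difference was 3.22 ± 0.33 (SE, n = 2 each; limma, Benjamini-Hochberg adjusted p = 5.44e-06), with a read ratio of 9.40 (95% exact binomial interval 8.12 to 10.9). At peak_3484 (NC_029649.1, 79449474 to 79450353, 880 bp) the values were 215 and 169 normalised reads in Dia 6d and 23.4 and 16.1 in Dev (log2 difference 3.23 ± 0.41, limma, Benjamini-Hochberg adjusted p = 0.000211). At peak_50642 (NW_015444003.1, 118220 to 118663, 444 bp) they were 87.9 and 60.4 in Dia 6d and 7.62 and 5.37 in Dev (log2 difference 3.32 ± 0.44, limma, Benjamini-Hochberg adjusted p = 0.00024). These 3 peaks, with peak_12398 and peak_18857, were the only ones of the 29 named by rule that stayed past the threshold in each of the 26 alternative analyses.

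The remaining 7 of the 12 largest increases were peak_1272, peak_39019, peak_45445, peak_4665, peak_7807, peak_6151 and peak_10595. The 12 log2 differences ran between 3.12 and 4.30, and the read ratios between 9.37 and 22.5. In 4 of the 12 a library held 3 reads or fewer, which makes the ratio coarse. At peak_45445 (NC_029666.1, 17875295 to 17875463), for example, Dia 6d had 24.2 and 26.8 normalised reads, against 2.93 and 0.67 in Dev, where the lower value stands for 1 read. The table holds no value below 1 read, so 0 and 1 read cannot be told apart there.

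**Figure D2:**
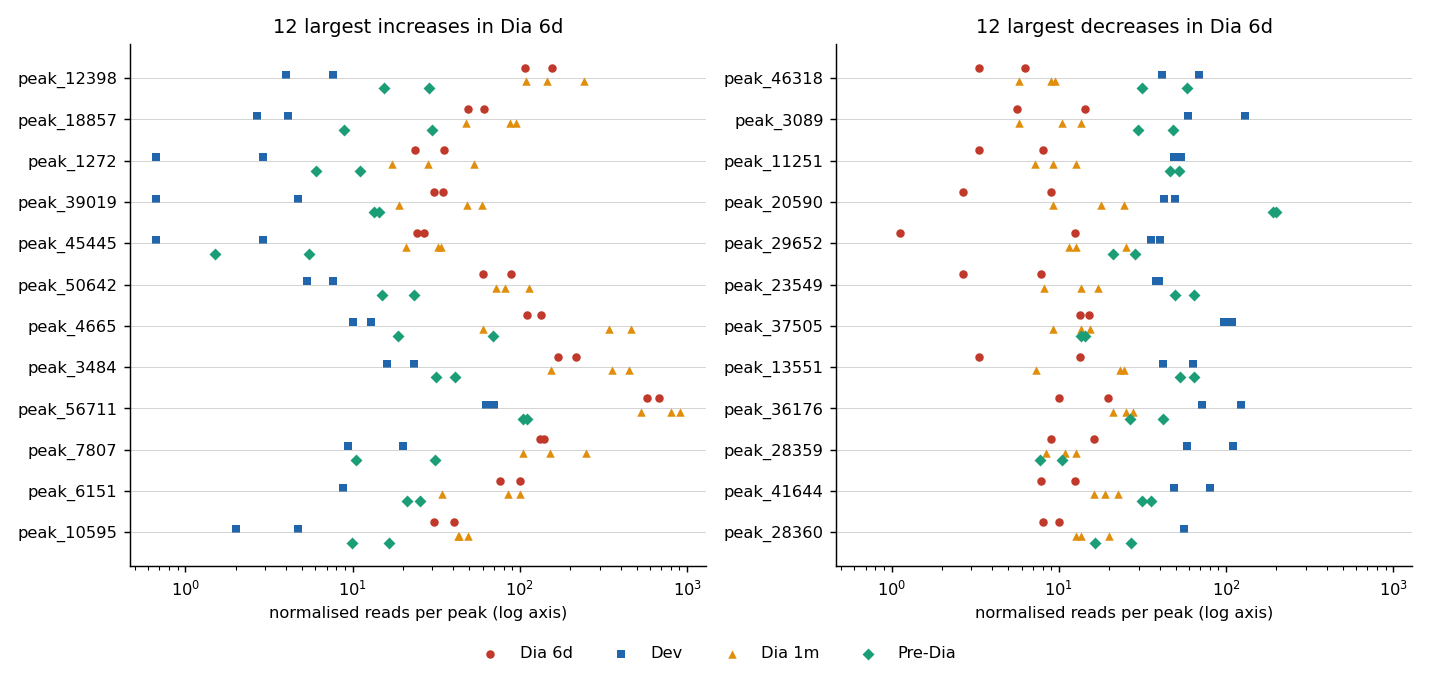
Normalised reads per peak (log axis) at the 12 largest increases (left) and the 12 largest decreases (right) in Dia 6d, with 1 symbol per library: circles Dia 6d, squares Dev, triangles Dia 1m and diamonds Pre-Dia. Circles and squares do not overlap in any row, and at peak_37505 and peak_28359 the Dev squares stand alone.

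The largest decreases were at elements that were nearly closed in Dia 6d. At peak_46318 (NC_029667.1, 6979255 to 6979707, 453 bp) the Dia 6d libraries held 6.28 and 3.35 normalised reads, against 69.1 and 41.6 in Dev. The lower of the Dev values was still several times the higher Dia 6d value. The log2 difference was -3.28 ± 0.60 (SE, n = 2 each; limma, Benjamini-Hochberg adjusted p = 0.00747), and the reads in Dev were 11.3 times those in Dia 6d (95% exact binomial interval 6.01 to 24.0). At peak_11251 (NC_029652.1, 6973970 to 6974340, 371 bp) the Dia 6d libraries held 8.07 and 3.35 normalised reads, against 53.9 and 49.0 in Dev (log2 difference -3.06 ± 0.56, limma, Benjamini-Hochberg adjusted p = 0.00762). At both of these peaks the Dia 1m libraries held 5.79 to 12.6 normalised reads and the Pre-Dia libraries 31.5 to 58.6. Dia 1m thus lay with Dia 6d, apart from Dev and Pre-Dia.

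Not every large decrease had that pattern. At peak_37505 (NC_029661.1, 39441658 to 39442075, 418 bp) the Dia 6d libraries held 15.3 and 13.4 normalised reads, against 108 and 96.6 in Dev (log2 difference -2.75 ± 0.50, limma, Benjamini-Hochberg adjusted p = 0.00747). The Dia 1m libraries held 13.6, 9.27 and 15.4 and the Pre-Dia libraries 14.4 and 13.5. Only the Dev libraries were high there. At peak_20590 (NC_029654.1, 58030422 to 58030936, 515 bp) the order was another: 2.69 and 8.94 normalised reads in Dia 6d, against 42.8 and 49.7 in Dev, with 17.8, 9.27 and 24.4 in Dia 1m and 190 and 200 in Pre-Dia. Accessibility was highest before the heartbeat began, lower in Dev, and lowest in diapause.

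The other 8 of the 12 largest decreases were peak_3089, peak_29652, peak_23549, peak_13551, peak_36176, peak_28359, peak_41644 and peak_28360. The 12 log2 differences lay between -3.28 and -2.51, a narrower range than that of the increases. In 6 of the 12 a Dia 6d library held 3 reads or fewer. The least secure was peak_29652 (NC_029658.1, 4523605 to 4523978), where the Dia 6d libraries held 12.6 and 1.12 normalised reads and the limma Benjamini-Hochberg adjusted p of 0.0415 was lost in 10 of its 24 alternative analyses.

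The 3 called peaks of each direction with the highest mean level included peak_56711, described above. peak_33387 (NC_029659.1, 30192475 to 30193786, 1312 bp) had 686 and 757 normalised reads in Dia 6d, against 158 and 164 in Dev (log2 difference 2.15 ± 0.36, limma, Benjamini-Hochberg adjusted p = 0.00287). peak_50299 (NW_015443988.1, 224208 to 225718, 1511 bp) had 202 and 226 normalised reads in Dia 6d, against 796 and 667 in Dev (log2 difference -1.77 ± 0.33, limma, Benjamini-Hochberg adjusted p = 0.00811). Both peaks had a clear signal at both stages, and the groups did not overlap. The others named for their level were peak_5506 among the higher peaks and peak_38241 and peak_29185 among the lower ones. At peak_5506 the values were 635 and 675 in Dia 6d and 252 and 189 in Dev (log2 difference 1.58 ± 0.39, limma, Benjamini-Hochberg adjusted p = 0.0488). That peak lost the threshold in 8 of its 26 alternative analyses.

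Most called peaks, by this measure, differed in degree and not as closed against open. Of the 305 higher peaks, 88 (28.9%) lay below the lower quartile of all peaks in both Dev libraries (16.9% of all peaks do so), and 212 (69.5%) lay above the upper quartile in both Dia 6d libraries (21.5% of all peaks). Only 18 did both, and these were the only 18 peaks in the table to do so. Of the 169 lower peaks, 33 (19.5%) lay below the lower quartile in both Dia 6d libraries (15.2% of all peaks), 129 (76.3%) lay above the upper quartile in both Dev libraries (21.6% of all peaks), and 3 did both. These shares describe the peaks that the test picked and are no separate evidence of change.

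Called peaks were wider and more strongly covered than the rest. The median width was 488 bp in the higher and 599 bp in the lower peaks, against 421 bp over all peaks. In 5 groups of equal size by mean level, the peaks gave 4, 15, 40, 96 and 150 higher calls and 0, 10, 35, 55 and 69 lower calls, lowest group first. Over the same groups the median SE of the log2 difference decreased, with 0.68 in the lowest and 0.36 in the highest. Peaks with few reads were thus less likely to be called at a given difference, and a peak not called there was not shown to be unchanged.

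The 5 Dia 1m and Pre-Dia libraries, whose levels do not enter the difference between Dia 6d and Dev but whose spread helped to decide which peaks were called, moved the same way. In the 305 higher peaks, the log2 difference Dia 1m minus Pre-Dia had a median of 1.51 and was positive in 299 (98.0%), against 50.3% of all peaks. In the 169 lower peaks it had a median of -1.16 and was negative in 159 (94.1%), against 49.7% of all peaks. All 3 Dia 1m libraries exceeded both Pre-Dia libraries in 256 of the higher peaks (83.9%, against 17.1% of all peaks), and all 3 lay below both in 133 of the lower peaks (78.7%, against 18.9%). The called peaks had higher mean levels than the table as a whole, with medians of 72.4 normalised reads in the higher peaks and 58.7 in the lower peaks against 33.4 over all peaks, and the part of level in these shares was not tested.

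Many of these differences passed the test by themselves. In the shared limma fit, 194 of the 305 higher peaks (63.6%) were also higher in Dia 1m than in Pre-Dia (4.72% of all peaks), and 86 of the 169 lower peaks (50.9%) were also lower (3.56% of all peaks). None was called in the opposite direction. Both contrasts share 1 estimate of the spread in that fit, so that a peak with a small spread is favoured in both. In a limma fit of the 5 Dia 1m and Pre-Dia libraries alone, 140 of the higher peaks (45.9%, against 1.62% of all peaks) and 47 of the lower peaks (27.8%, against 1% of all peaks) passed. These 305 and 169 peaks were still picked with a spread that the same 5 libraries helped to set. Peaks with a small spread thus stay favoured in these shares. The shared fit called 97 of the higher and 28 of the lower peaks with Pre-Dia replicate 1 left out, 82 and 23 with Pre-Dia replicate 2 left out, and 131 and 55 with Dia 1m replicate 1 left out. The share of all peaks called higher and lower was 1.54% and 0.489%, 0.865% and 0.326%, and 1.85% and 1.35% in these 3 fits. With Dia 1m replicate 3, the library that stood apart, left out it called 249 and 98, while the share of all peaks called also went up, to 12.7% higher and 8.03% lower.

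The wider sets of the 4-library fit did likewise, to a smaller degree, with no library or spread estimate in common. Of the 3230 higher peaks, 2931 (90.7%, against 50.3% of all peaks) had a positive Dia 1m minus Pre-Dia difference. The 5-library test called 513 of them higher (15.9%, against 1.62% of all peaks). Of the 3098 lower peaks, 2714 (87.6%, against 49.7% of all peaks) had a negative difference. It called 296 of them lower (9.55%, against 1% of all peaks). The median level was 65.5 normalised reads in the higher and 56.2 in the lower set, against 33.4 over all peaks. The part of level in these shares was not tested. Whether the diapause differences themselves differed, (Dia 6d minus Dev) minus (Dia 1m minus Pre-Dia), was tested in the shared limma fit: 0 peaks passed the Benjamini-Hochberg threshold and 4150 (6.88%) had an unadjusted p under 0.05. That count does not show the differences to be equal.

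**Figure D3:**
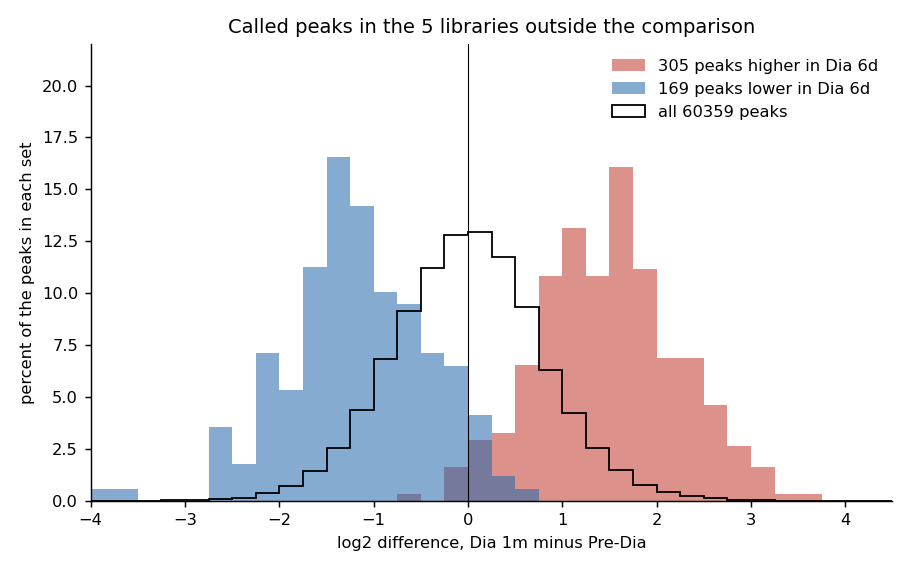
Distribution of the log2 difference Dia 1m minus Pre-Dia, in percent of each set, for the 305 peaks higher in Dia 6d than in Dev (red), the 169 lower peaks (blue) and all 60359 peaks (black line). The red bars centre on a median of 1.51 and the blue bars on -1.16, on opposite sides of 0.

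The level of the called peaks was also taken in each library. The Dia 6d and Dev levels largely follow from the choice of peaks, which favours extreme values at these stages. Where Pre-Dia and Dia 1m lay relative to them was therefore not tested. Only the levels of Dia 1m against Pre-Dia did not enter the difference that picked the peaks. The median over the 305 higher peaks was 99.6 and 96.1 normalised reads in Dia 6d, against 23.4 and 24.2 in Dev. Outside that comparison it was 105, 144 and 76.8 in Dia 1m, against 33.1 and 37.5 in Pre-Dia. All 5 diapause libraries therefore lay above all 4 others, with Dia 1m on either side of Dia 6d and Pre-Dia a little above Dev. Over the 169 lower peaks the median was 30.5 and 29.1 normalised reads in Dia 6d, against 124 and 104 in Dev, and it was 30.4, 34.8 and 31.6 in Dia 1m, against 82.9 and 79.6 in Pre-Dia. Pre-Dia lay between diapause and Dev there, and nearer Dev.

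**Figure D4:**
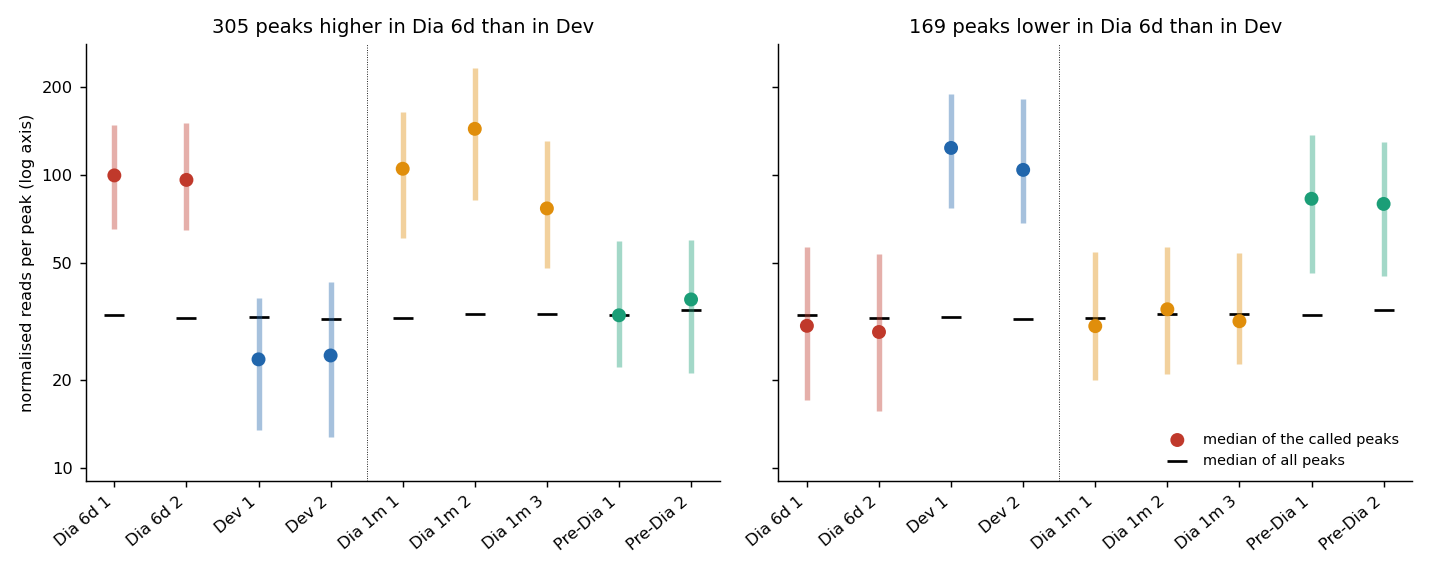
Median normalised reads (points, log axis) with the lower and upper quartile over peaks (bars) in each of the 9 libraries, for the 305 higher (left) and the 169 lower peaks (right). Black dashes give the median of all peaks, and the dotted line separates the libraries of the comparison from those outside it. Dia 6d and Dia 1m stand together in both panels, from 76.8 to 144 on the left and from 29.1 to 34.8 on the right.

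Peak by peak, Pre-Dia was nearer Dev than Dia 6d in 230 of the 305 higher peaks (75.4%) and in 121 of the 169 lower peaks (71.6%), against 54.6% of all peaks. Dia 1m was nearer Dia 6d than Dev in 299 of the higher (98.0%) and 154 of the lower peaks (91.1%), against 63.9% of all peaks. Nearness was judged against the same Dia 6d and Dev values that picked these peaks for lying far apart. Dia 6d and Dev typically lay 1.94 log2 units apart in the called peaks (median), but only 0.42 over all peaks. The shares of all peaks are therefore no like-for-like background, and these counts carry no test.

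A smaller group of lower peaks was high in Dev alone. In the 48 lower peaks where Pre-Dia was nearer Dia 6d, the medians were 31.9 and 30.2 normalised reads in Dia 6d, against 136 and 97.0 in Dev, with 31.5, 30.7 and 29.4 in Dia 1m and 43.6 and 42.0 in Pre-Dia. Only Dev stood high, and Pre-Dia was a little above both diapause stages. Of these 48 peaks, 12 belong to the lower runs described below, where Dev replicate 1 was the higher Dev library at each called peak. In the 75 higher peaks where Pre-Dia was nearer Dia 6d, the medians were 76.3 and 76.0 in Dia 6d, against 17.6 and 20.1 in Dev. They were 94.4, 111 and 67.8 in Dia 1m and 46.4 and 48.0 in Pre-Dia. At those peaks Dev was lowest, and Pre-Dia lay between Dev and both diapause stages. Both groups were formed from the measured levels and carry no test.

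Peaks next to a called peak leaned the same way. Within 10 kb of a higher peak lay 346 uncalled peaks, whose median log2 difference was 0.30 and of which 67.6% were positive (48.8% of all peaks). Within 10 kb of a lower peak lay 266 uncalled peaks, with a median of -0.46 and 78.6% negative (51.2% of all peaks). Of all 359 neighbours of higher peaks, 12 were called higher (0.505% of all peaks) and 1 lower (0.28% of all peaks). Of all 287 neighbours of lower peaks, 20 were called lower and 1 higher. The opposite calls were too few to set these neighbours apart from all peaks.

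Some called peaks stood in runs. Of the 305 higher peaks, 16 (5.25%) had another higher peak within 20 kb, and of the 169 lower peaks, 27 (16.0%) had another lower peak. In the 4-library fit the shares were 26.9% of the 3230 higher and 30.3% of the 3098 lower peaks, much closer to each other. Such shares rise with the number of peaks called, so the 2 fits cannot be compared in level. The share that the spacing of all peaks would give was not computed, so these counts do not show clustering. The difference between the directions was not tested. There were 6 runs of at least 3 called peaks, 4 lower and 2 higher. The rule asked for the 5 longest, and 3 tied for the last places, so all are given.

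The run most particular to Dev lay on NC_029657.1 between 41511128 and 41524606 and held peak_28358, peak_28359, peak_28360 and peak_28362. Their values added up to 69.1 and 46.9 normalised reads in Dia 6d, against 407 and 247 in Dev, with 61.9, 67.2 and 57.8 in Dia 1m and 65.2 and 96.1 in Pre-Dia. Only the Dev libraries were high. The 4 log2 differences lay between -2.64 and -2.24 (limma, largest Benjamini-Hochberg adjusted p = 0.0325), and peak_28361 between them had -1.64 without passing. None of the 4 was called between Dia 1m and Pre-Dia.

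A pair of lower runs lay less than a megabase apart on NC_029650.1. The first, 2172512 to 2193782 (peak_4535, peak_4536, peak_4537 and peak_4539), summed to 209 and 199 normalised reads in Dia 6d, against 957 and 521 in Dev. The second, 3015390 to 3025636 (peak_4569 to peak_4572), summed to 215 and 249 in Dia 6d, against 921 and 650 in Dev. Pre-Dia stood at 342 and 326 in the first and 330.3 and 320 in the second, nearer the diapause stages than the mean of Dev. In the first run peak_4536 went the other way, unlike the other called peaks there. It had 89.5 and 81.1 normalised reads in Pre-Dia, against 179 and 87.2 in Dev and 28.7 and 19.0 in Dia 6d. The fourth lower run, on NC_029649.1 at 70118696 to 70121958 (peak_3088 to peak_3090), summed to 156 and 146 in Dia 6d, against 827 and 418 in Dev.

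In all 4 lower runs Dev replicate 1 was well above Dev replicate 2. It was the higher of the Dev libraries in 15 of the 15 called peaks, with a median log2 difference of 0.86, against 93 of the 154 lower peaks outside these runs (60.4%) and 52.6% of all peaks. Both Dev libraries stayed above both Dia 6d libraries at each of the 15. Of the 15, 2 were also called lower in Dia 1m than in Pre-Dia, against 84 of the other 154 and 3.56% of all peaks. These counts were noticed after the values were seen and carry no test, neighbouring peaks are not independent, and the part of the Dev replicates' difference in the runs was not tested.

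In both higher runs the Dia 1m libraries lay above the Pre-Dia libraries as well. On NC_029667.1 at 4908331 to 4912733, peak_46236, peak_46237 and peak_46238 summed to 475 and 513 normalised reads in Dia 6d, against 146 and 169 in Dev, and to 573, 821 and 439 in Dia 1m, against 191 and 170 in Pre-Dia. All 5 diapause libraries lay above all 4 others. On NC_029650.1 at 31636785 to 31640353, peak_5517, peak_5518 and peak_5519 summed to 363 and 386 in Dia 6d, against 93.7 and 77.2 in Dev, and to 240.3, 467 and 193 in Dia 1m, against 98.3 and 102 in Pre-Dia. Of these 6 peaks, 5 were also called higher in Dia 1m than in Pre-Dia, against 4.72% of all peaks. peak_5520, just beyond the 20 kb limit, was higher too, with a log2 difference of 1.87. The scaffold of peak_56711 held a further close pair, since peak_56712, 180 bp away, was also higher in Dia 6d.

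**Figure D5:**
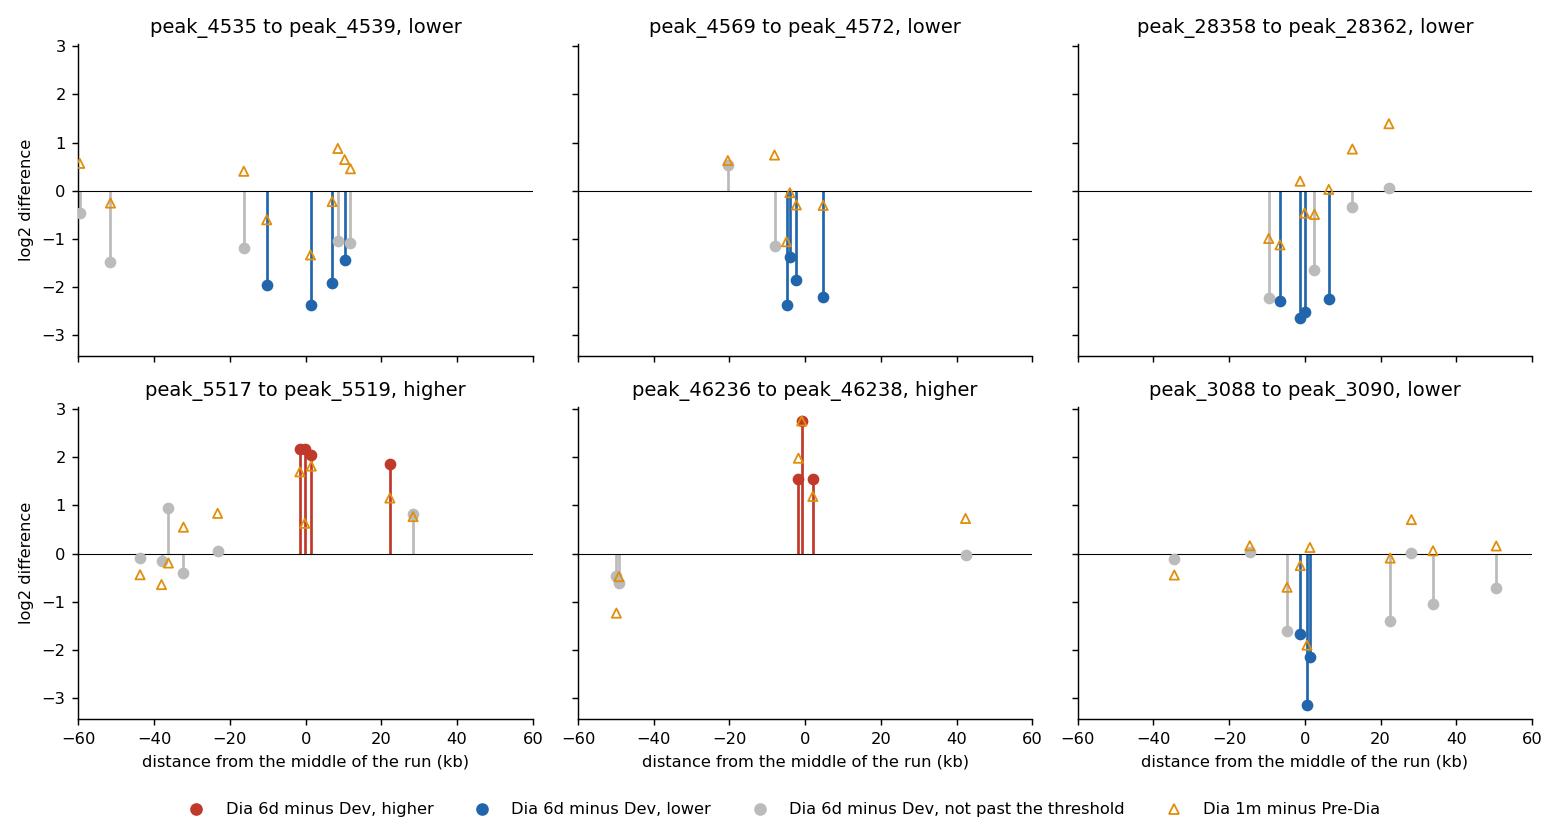
Log2 difference, Dia 6d minus Dev (stems and filled circles), and Dia 1m minus Pre-Dia (open triangles) for the peaks around each of the 6 runs, by distance in kb from the middle of the run. Red and blue mark peaks higher and lower in Dia 6d, and grey those not past the threshold. In the 2 higher runs the triangles are raised with the circles, whereas in the 4 lower runs most lie near 0 or well short of the circles.

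Called peaks of both directions lay on each of the 19 chromosome sequences and on unplaced scaffolds. How evenly they were spread was not tested. On the 19 chromosome sequences lay 240 of the higher peaks (78.7%) and 138 of the lower (81.7%), against 77.8% of all peaks, and the rest lay on unplaced scaffolds. The extremes, picked after the counts were seen, were NC_029661.1 with 16 lower peaks of 1659 (0.964%) and NC_029667.1 with 10 higher peaks of 939 (1.06%). At the other end, NC_029656.1 had 1 lower peak of 2531 and NC_029655.1 had 5 higher peaks of 2952 (0.169%).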

How the data were processed

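The consensus peaks, lists and rules used here were chosen with earlier results of these data known. Per the study's methods and the submitters' processing notes, the authors trimmed reads (Trim Galore 0.4.1), aligned them to Nfu_20140520 (Bowtie2 2.2.5), removed duplicates and low-quality alignments (Picard 2.22.1, SAMtools 1.5), shifted reads for the Tn5 insertion (deepTools 3.2.1), called peaks (MACS2 2.1.1.20160309) and merged them into consensus peaks. The deposited values are a signal: reads per peak scaled with 1 factor for each library and not divided by width, although the table is named for RPKM. In each library 100% of values were whole multiples of 1 read within 0.01 reads, and none was below 1 read. The signal was tested as log2(value + 1), which understates changes of low peaks, with limma 3.58.1 (R 4.3.3), a trended prior and two-sided moderated tests, on 5 residual and 23.6 prior degrees of freedom. An exact permutation test of 2 against 2 libraries cannot go below p = 0.333 and was not used. Count tests on recovered reads used edgeR 4.0.16 and DESeq2 1.42.0 as alternatives. Scripts were tested on simulated data.

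Named peaks were the 12 largest increases and 12 largest decreases past the threshold whose Dia 6d and Dev libraries did not overlap, the 3 of each direction with the highest mean level, and the longest runs of at least 3 called peaks of 1 direction with gaps of at most 20 kb. The alternatives were the libraries in the fit, the pseudocount (0.5, 5), a minimum mean level (10, 20), scaling, prior, library weights, test, replicate block, a log2 difference of at least 1, each library left out and, chosen after seeing the data, reads thinned to the shallowest library. Genes, motifs and sequences planned for these peaks need an annotation and genome of this assembly and were not analysed here.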

Additional observations from a re-analysis of the deposited data

How the results depend on the processing

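The 305 higher and 169 lower peaks kept their directions in the alternatives run, where tested, as their lack of overlap largely fixes. The count of 474 moved. It was 767 (500 higher, 267 lower) with quantile normalization, 846 (548, 298) with edgeR and 1255 (738, 517) with DESeq2 on recovered reads, and 6714 (3596, 3118) with library weights, whose estimation stopped before it converged. With the Dia 6d and Dev libraries alone it was 6328 (3230, 3098) with limma, 6607 (3590, 3017) with edgeR and 3538 (2018, 1520) with DESeq2. The shares of these higher and lower sets called the same way between Dia 1m and Pre-Dia were then 15.9% and 9.55% with limma (1.62% and 1% of all peaks), 15.4% and 8.49% with edgeR (1.65% and 0.862%) and 28.1% and 20.5% with DESeq2 (2.5% and 1.59%). Other settings gave 449 to 578 calls. Thinning each library to the same total of reads in peaks gave 511, of which 72.6% were higher, against 64.3%, with a median log2 difference over all peaks of 0.03 against -0.02. After thinning, 252 of the 305 higher peaks but only 114 of the 169 lower peaks were still called.

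Leaving out 1 library gave 11 to 3356 calls, 9 to 1887 higher and 2 to 1469 lower. Of the sets so redefined, 90.3% to 100% of higher peaks had a positive and 50% to 100% of lower peaks a negative Dia 1m minus Pre-Dia difference, and 34.0% to 100% and 12.5% to 100% were called; the lowest of the negative shares rests on 2 peaks, left without Dev replicate 2. Of the 29 named peaks, 13 stayed past the threshold without Dia 6d replicate 1, 6 without replicate 2, 8 without Dev replicate 1 and 7 without replicate 2. Their directions could not change there, since they were chosen with no overlap between Dia 6d and Dev.

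The replicate numbers did not pair the Dia 6d and Dev libraries: deviations of same-numbered libraries correlated at 0.0259. Over the other stages the same-numbered correlations ran from -0.232 (Dev 2 with Dia 1m 2) to 0.0396 (Dia 6d with Pre-Dia). With the replicate block the count was 2836 (1658, 1178), which included all 305 and 169 peaks. Only Dia 1m has a replicate 3, so the block also takes that library out of the spread. The count is therefore no check of pairing. Dia 6d depth, a median of 29 to 37 reads per peak, limits what can be said of weaker peaks.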
